A study of Mus musculus with 6 samples.

Results

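Immediate early genes are switched on within minutes of a stimulus, from proteins that the cell already holds, and their transcripts are short-lived. The 10 genes described here were chosen by symbol: Fos, Fosb and Fosl2 and their partners Jun, Junb and Jund, which together form the dimeric transcription factor AP-1, the zinc finger factor Egr1, the orphan nuclear receptors Nr4a1 and Nr4a2, and the factor Npas4. They are 10 of the 54119 genes in the tables and of 16430 genes tested, and all 10 passed the filter on low counts. In islets, genes of this class are known to respond to glucose and to membrane depolarisation through calcium and cAMP, and in many tissues to growth factors, stress and tissue dissociation.

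Pancreatic islets were taken at postnatal day 24 from 3 Dpy30 knockout and 3 control male mice of strain C57BL/6, 1 mouse per library, and polyadenylated RNA was sequenced. Dpy30 codes for a core subunit shared by the SET1 and MLL enzymes, which place methyl groups on histone H3. No Cre driver and no deleted cell type is named in the labels, and the controls are described no further than by strain, sex and age. Whole islets were sequenced, so fewer cells of a type and less RNA per cell cannot be told apart.

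The libraries held 17131515 to 23976598 estimated reads in knockout and 24575889 to 25354384 in control islets. Transcripts without exon 4 of Dpy30 held 80.5 to 82.1% of its reads in knockout and 0.427 to 5.21% in control libraries, while its summed level was 31.9, 53.2 and 30.7 CPM (read counts scaled to library size by TMM) in knockout and 25.6, 30.2 and 31.8 CPM in control islets. The split by exon 4 was chosen with these transcripts' values in view. The defining islet hormones were abundant in all 6 libraries. The beta cell marker sum, mostly from Ins1 and Ins2, was 59715 to 104814 CPM in knockout and 144541 to 239888 CPM in control islets. Not every beta cell marker was lower in knockout: Mafa averaged 455 CPM in knockout and 302 CPM in control islets. Slc2a2 averaged 87.3 CPM in knockout and 868 CPM in control islets. Summed acinar markers read 2393 to 14891 CPM in knockout and 984 to 3414 CPM in control islets, and none of the 10 was at 0 in any library. Gm42418, a predicted gene, took 158399 CPM in knockout replicate 2 and at most 2145 CPM in any other library.

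Of the 10 genes, the sequence around 1 splice choice and 3 promoters are shown, because the transcript kinds and the co-variation described below bear on them. Fosb (ENSMUSG00000003545, chromosome 7, 19302696 to 19310051, minus strand, GRCm38) is known to give a short form, delta-FosB, when a stretch inside its last exon is spliced out. In GENCODE vM21 that stretch is chr7:19305007-19305146 on the minus strand, 140 bases, all coding in the main transcript, with its first and last 2 bases in capitals:
Fosb spliced stretch: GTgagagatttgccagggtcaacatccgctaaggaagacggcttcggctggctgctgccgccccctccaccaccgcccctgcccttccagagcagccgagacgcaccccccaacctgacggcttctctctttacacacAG

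The 250 bases before the RefSeq start (GRCm38.p6) of Fos, Fosb and Nr4a1 follow, 5′ to 3′ in the sense of the gene, with each match to TGACG, the core of the cAMP response element, in capitals. A match on the other strand reads CGTCA, and the full element TGACGTCA, which would hold both, was in none of the windows.
Fos, chr12:85473640-85473889, plus strand: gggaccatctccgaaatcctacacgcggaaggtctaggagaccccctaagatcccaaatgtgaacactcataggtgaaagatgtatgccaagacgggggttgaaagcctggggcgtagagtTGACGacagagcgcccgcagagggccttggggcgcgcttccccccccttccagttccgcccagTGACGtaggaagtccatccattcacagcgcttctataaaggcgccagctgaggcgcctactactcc
Fosb, chr7:19310046-19310295, minus strand: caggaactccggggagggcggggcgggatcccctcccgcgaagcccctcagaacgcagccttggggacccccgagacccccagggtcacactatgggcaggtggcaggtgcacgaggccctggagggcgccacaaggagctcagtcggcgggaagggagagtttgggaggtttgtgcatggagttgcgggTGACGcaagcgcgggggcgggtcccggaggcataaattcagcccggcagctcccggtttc
Nr4a1, chr15:101266596-101266845, plus strand: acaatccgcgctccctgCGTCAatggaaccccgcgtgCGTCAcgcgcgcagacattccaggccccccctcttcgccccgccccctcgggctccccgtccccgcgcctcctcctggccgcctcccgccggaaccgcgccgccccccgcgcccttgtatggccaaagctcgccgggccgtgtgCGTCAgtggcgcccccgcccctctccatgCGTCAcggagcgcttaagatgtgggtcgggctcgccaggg

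RefSeq promoters were matched for 9 of the 10 genes, all but Egr1. The core TGACG lay in 6 of these 9 windows (4 times each in Nr4a1 and Nr4a2, 2 times each in Fos and Npas4, and 1 time each in Fosb and Junb) and in 17.8% of 32851 promoter windows of the same length. The full element lay in 0 of the 9 and 1.55% of all windows, the AP-1 site TGAGTCA (either strand) in 0 and 4.46%, and the CArG box, the element bound by serum response factor, in 0 and 1.47%. The Egr site GCGTGGGCG lay in 0 and 0.536%. These counts describe letters in a window of 250 bases and no binding was measured. Elements further upstream, and any of Egr1, were not searched, so the counts do not show that a gene lacks an element.

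The spread between replicates exceeded the difference between groups for each of the 10 genes. Control replicate 1 had the highest level of all 6 libraries and control replicate 2 the lowest, in 10 of 10 genes, so the 3 knockout libraries lay inside the control range throughout. The highest library was control replicate 1 in 18.8% of all tested genes and the lowest was control replicate 2 in 16.6%. The members' TPM (levels per transcript length) summed to 1798, 1530 and 1597 in knockout replicates 1 to 3 and to 3939, 98.9 and 1693 in control replicates 1 to 3.

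**Figure D1:**
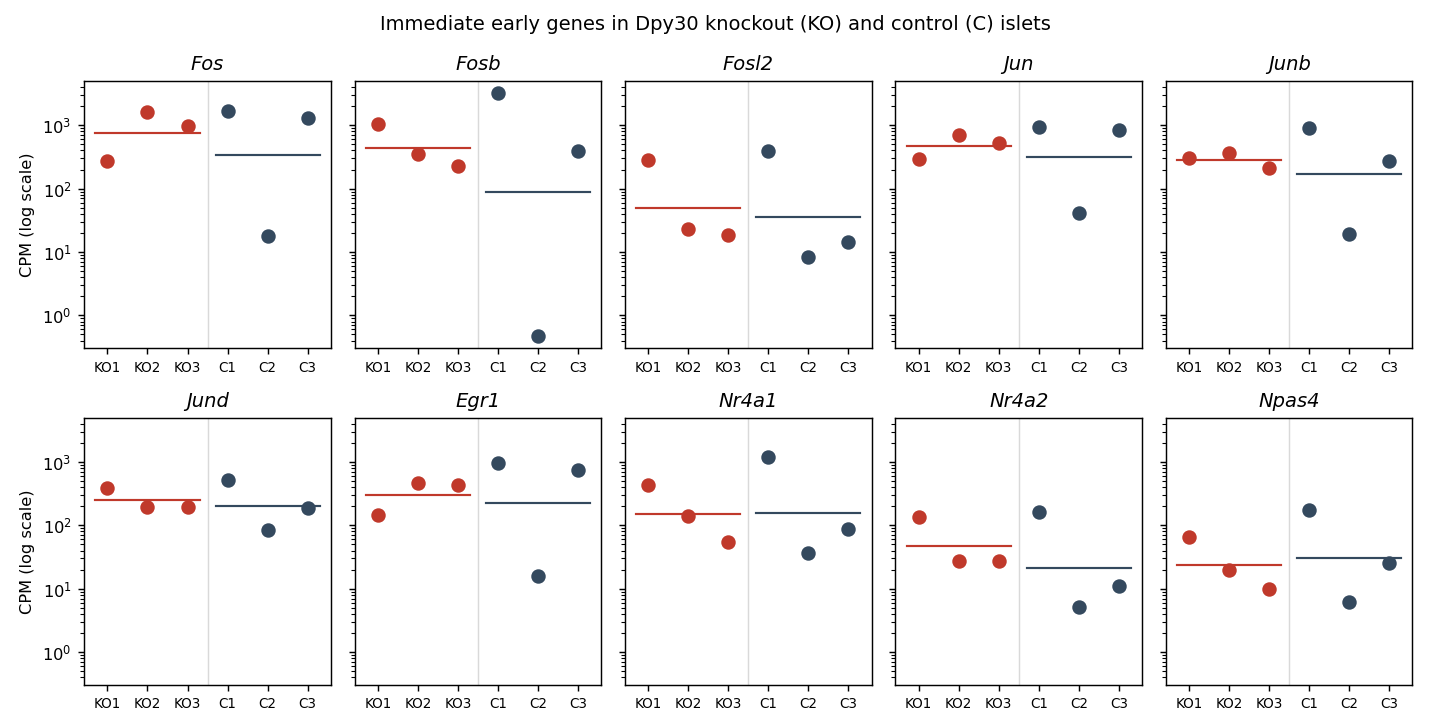
CPM on a log axis of the 10 genes in each library (points), knockout (KO) left and control (C) right, with lines at the geometric group means. In every panel control replicate 1 is the highest and control replicate 2 the lowest of the 6 points.

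Among the Fos family, which cannot pair with themselves and bind DNA with a Jun partner, Fos (chromosome 12, 85473890 to 85477273) read 275, 1595 and 972 CPM in knockout and 1706, 18 and 1298 CPM in control islets. Fos was high in 4 libraries, lower in knockout replicate 1 and lowest in control replicate 2. Fosb read 1061, 353 and 224 CPM in knockout and 3210, 0.474 and 397 CPM in control islets. Control replicate 2 held 11 Fosb reads and control replicate 1 held 76935, a 6777-fold range in CPM within 1 group, against 4.73-fold within the knockout group. Fosl2 (chromosome 5, 32135801 to 32157842), which codes for the Fos-related factor Fra-2, read 281, 23.3 and 18.6 CPM in knockout and 391.6, 8.27 and 14.2 CPM in control islets. It was high in replicate 1 of each group and at most 23.3 CPM in the other 4 libraries, with 6992 and 9386 reads in those 2 libraries and 192 to 495 in the others.

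The Jun family members can pair with one another or with Fos proteins. Jun (chromosome 4, 95049034 to 95052222) read 293, 711 and 523 CPM in knockout and 938, 40.7 and 848 CPM in control islets. As for Fos, knockout replicate 1 came next above control replicate 2. Junb (chromosome 8, 84974484 to 84978718) read 303, 368 and 213 CPM in knockout and 914, 19.1 and 273 CPM in control islets, with control replicates 1 and 2 outside an otherwise narrow range. Jund (chromosome 8, 70698949 to 70700616), known as the most steadily expressed of the 3, read 389, 196 and 198 CPM in knockout and 515, 83.0 and 188 CPM in control islets. Jund had the narrowest control range of the 10 genes, 6.21-fold. Jun and Jund overlap the antisense genes Junos and Gm11175 and Junb overlaps Prdx2 on the other strand. Strand use in the counting is not stated, so reads of overlapping genes may not be separated.

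Egr1 (chromosome 18, 34859823 to 34864984), a zinc finger factor downstream of the ERK kinases, read 145, 462 and 430 CPM in knockout and 948, 15.9 and 751 CPM in control islets. Its order over the 6 libraries was that of Jun, with replicate 1 the lowest of the knockout libraries. Nr4a1 (chromosome 15, 101254269 to 101274795), the orphan receptor also called Nur77, read 429, 139 and 55.2 CPM in knockout and 1191, 36.1 and 87.5 CPM in control islets. Nr4a2 (chromosome 2, 57106830 to 57124003), or Nurr1, read 138, 27.3 and 27.5 CPM in knockout and 162, 5.17 and 11.2 CPM in control islets. Npas4 (chromosome 19, 4984355 to 4990316), a factor known to be induced by calcium entry in neurons and beta cells, read 65.6, 19.7 and 10.1 CPM in knockout and 175, 6.20 and 25.8 CPM in control islets. For Nr4a1, Nr4a2 and Npas4, replicate 1 was the highest library of each group.

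The order of the genes by level per transcript length also changed between libraries. Fos led in knockout replicates 2 and 3, at 761 and 726 TPM, and in control replicate 3, at 731 TPM. Fosb led in knockout replicate 1 at 449 TPM, followed by Jund at 333 TPM, and in control replicate 1 at 950 TPM, followed by Fos at 883 TPM. In control replicate 2 Jund led at 44.2 TPM, Nr4a1 followed at 15.8 TPM and Fosb was last at 0.111 TPM. The TPM ratio of Fosb to Fos, in which the scaling of a library cancels, was 2.27, 0.106 and 0.110 in knockout replicates 1 to 3 and 1.08, 0.0119 and 0.144 in control replicates 1 to 3. As group means, Fos was first with 562 ± 316 TPM in knockout and 541 ± 467 TPM in control islets (SD, n = 3 each), and Npas4 was last in knockout islets with 12.2 ± 13.0 TPM. Of the 9 neighbouring pairs in the order of means, 1 pair in knockout islets (Fos above Fosb, 203 ± 213 TPM) and 0 pairs in control islets differed by more than the larger SD of the pair.

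Between knockout and control islets 0 of the 10 genes were called by edgeR's quasi-likelihood test, with p-values adjusted by Benjamini-Hochberg over all tested genes, where 9.95% of all tested genes were called (4.1% higher and 5.84% lower in knockout). The unadjusted p was below 0.05 in 0 of 10, against 27.5% of all tested genes. DESeq2 called 0 of the 10 and 16.1% of all genes (7.31% higher, 8.77% lower), limma-voom 0 and 9.96% (4.1% higher, 5.86% lower), and edgeR with the replicate number as a block 0 and 14.8% (6.93% higher, 7.86% lower). DESeq2 gave no p-value for Fosl2 and Nr4a2. The 2 groups overlapped in 10 of 10 genes, while 34.8% of all tested genes did not overlap. Log2 fold changes of knockout over control ran from -1.14 (SE 1.70, 95% interval -5.06 to 2.78, adjusted p = 0.708) for Fosb to 0.11 (SE 1.17, -2.59 to 2.82, adjusted p = 0.964) for Nr4a2, with a median of -0.40 against 0.01 over all tested genes. With the replicate number as a block, 6 of the 10 changed sign, so that 7 of 10 were above 0, and 0 were called. Fos moved to 0.22, Fosb to 0.38, Fosl2 to 0.43, Jun to 0.20, Junb to 0.42 and Jund to 0.30. Nr4a2 moved to 1.10 (adjusted p = 0.145, edgeR). The block lowered the SE of Fosl2 (to 0.34), Jund (0.31), Nr4a1 (0.63), Nr4a2 (0.45) and Npas4 (0.59) and raised that of the other genes. Without the block, Fos stood at -0.09 (SE 1.17, -2.78 to 2.60, adjusted p = 0.971) and Nr4a1 at -1.08 (SE 1.21). Npas4 stood at -1.11 (SE 1.09) and had the smallest adjusted p of the 10 at 0.55. The narrowest interval was that of Jund, from -1.37 to 1.35 around -0.01. These intervals, from the fit without the block, hold differences of 2-fold in both directions for all 10 genes. In the authors' deposited table the adjusted p-values ran from 0.653 for Npas4 to 0.996 for Jund, with none listed for Fosl2.

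The direction of the difference turned on single libraries for all genes but Egr1, which stayed below 0 in each fit without 1 library. The sign reversed for 8, 1 and 3 genes without control replicates 1, 2 and 3. Without knockout replicates 1, 2 and 3 the sign reversed for 3, 2 and 2 genes. Without control replicate 1 the log2 fold change was above 0 for 9 of 10 genes, for example 3.25 for Fosl2, 2.97 for Nr4a2, 1.74 for Nr4a1 and 1.45 for Fosb, and the smallest adjusted p was 0.0854. Without control replicate 2 it was below 0 for 10 of 10, for example -1.73 for Fosb, -1.66 for Npas4 and -1.30 for Egr1, and the smallest adjusted p was 0.155. Without knockout replicate 1, Fosl2 moved to -2.73, Npas4 to -2.22, Nr4a1 to -2.18, Fosb to -2.06 and Nr4a2 to -1.12, while Fos moved to 0.35, Jun to 0.02 and Egr1 to -0.36. The kind of mean mattered as well. The arithmetic mean of Fosb was 546 ± 450 CPM in knockout and 1203 ± 1750 CPM in control islets (SD, n = 3 each), whereas its geometric mean was 438 CPM in knockout and 89.4 CPM in control islets. The geometric mean was higher in knockout islets for 8 of the 10 genes, all but Nr4a1 and Npas4, while the edgeR estimate was below 0 for 9 of 10.

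**Figure D2:**
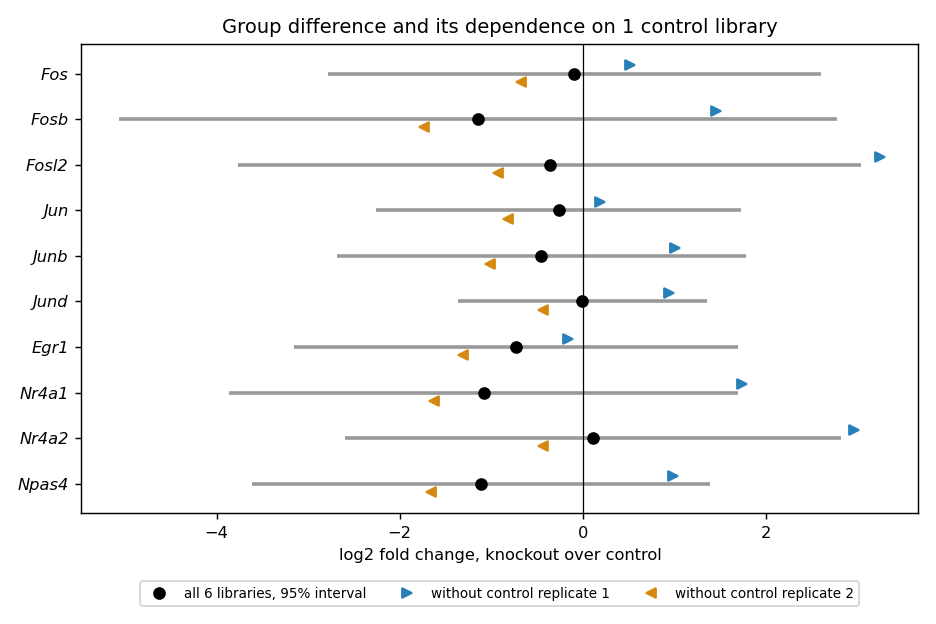
Log2 fold change of knockout over control for each gene (black points) with its 95% interval (grey bars), and the estimates without control replicate 1 (blue) or control replicate 2 (orange). All intervals cross 0, and 9 of 10 blue and 0 of 10 orange markers lie above 0. The fits shown do not use the replicate number as a block.

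Between replicates of the same group, with both groups pooled, the 10 genes were among the most variable of the transcriptome. The biological coefficient of variation, the relative spread between replicates that edgeR estimates beyond counting error, ran from 0.506 for Jund to 1.27 for Fosb, with a median of 0.886 against 0.223 over all tested genes. Each of the 10 lay between the 96.7th and the 99.8th percentile of the tested genes. The within-group SD on the log2 CPM scale was 4.68 for Fosb, 2.76 for Fos and 1.01 for Jund, against a median of 0.271 over all tested genes. The median standard error of a log2 fold change was 1.13 for the 10 genes and 0.226 over all tested genes. The range between replicates was wider in control than in knockout islets for each of the 10. It ran from 1.73-fold (Junb) to 15.1-fold (Fosl2) in knockout and from 6.21-fold (Jund) to 6777-fold (Fosb) in control islets.

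**Figure D3:**
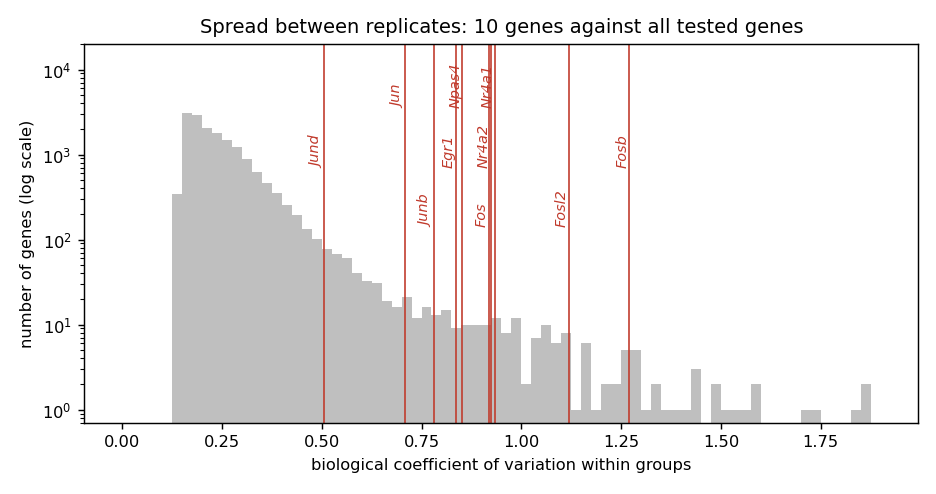
Number of tested genes (log axis) by biological coefficient of variation within groups, in bins of 0.025, with red lines at the 10 genes. The lines run from 0.506 for Jund to 1.27 for Fosb, to the right of most of the 16430 genes.

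Ratios of replicate 1 over replicate 3 put the same 5 genes past 4-fold in both groups, but the ratios over replicate 2 did not. Fosb, Fosl2, Nr4a1, Nr4a2 and Npas4 were over 4-fold higher in replicate 1 than in replicate 3 of the knockout group, with log2 ratios of 2.24, 3.91, 2.96, 2.33 and 2.70. The same 5 genes were over 4-fold higher in replicate 1 than in replicate 3 of the control group, with log2 ratios of 3.01, 4.78, 3.77, 3.85 and 2.76. Fos, Jun and Egr1 were lower in knockout replicate 1 than in knockout replicate 3 (log2 ratios -1.82, -0.84 and -1.57) and had the 3 smallest ratios in control islets (0.39, 0.15 and 0.34). Junb (0.51 in knockout, 1.74 in control) and Jund (0.97 in knockout, 1.45 in control) lay between. Over all tested genes, 0.408% passed 4-fold in both groups. Against replicate 2 only Fosl2 (3.59) and Nr4a2 (2.34) passed 4-fold in knockout islets, where Fosb stood at 1.59, Nr4a1 at 1.63 and Npas4 at 1.73. In control islets all 10 genes passed 4-fold against replicate 2, with Fos (6.57) and Egr1 (5.90) above Fosl2 (5.57), Nr4a1 (5.04), Nr4a2 (4.97) and Npas4 (4.82). The ratios compare single libraries and carry no replicate error, and no library is used in both groups' ratios.

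**Figure D4:**
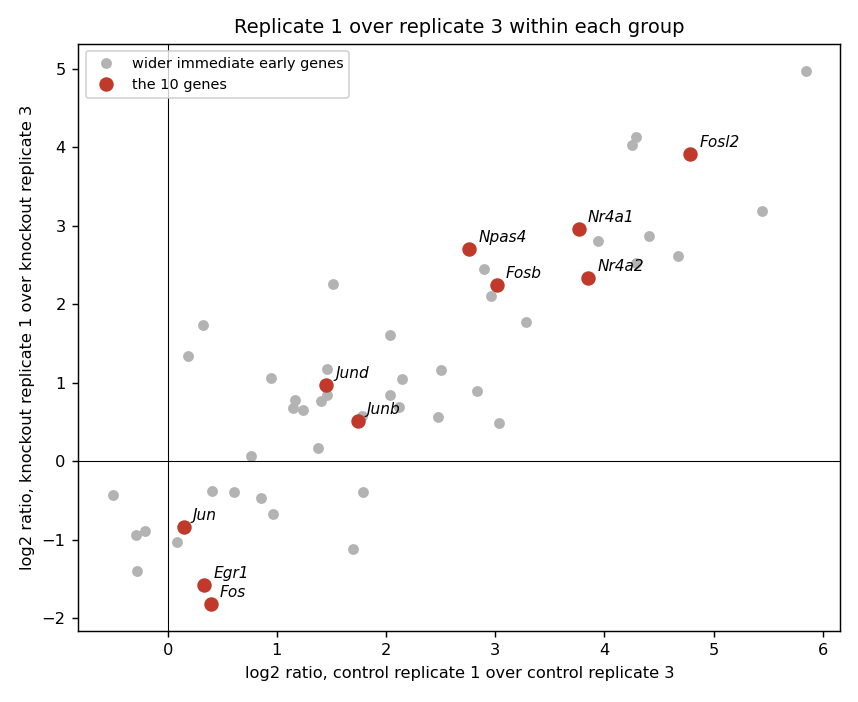
Log2 ratio of replicate 1 over replicate 3 in knockout islets (y axis) and in control islets (x axis) for the 10 genes (red) and 43 wider immediate early genes (grey). Fosb, Fosl2, Nr4a1, Nr4a2 and Npas4 lie above 2 on both axes, and Fos, Jun and Egr1 lie below 0 in knockout islets.

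The transcripts that made up a gene's reads differed between the same libraries. Fosb-204, an annotated transcript that keeps introns of Fosb, held 0.662% (95% exact interval 0.568 to 0.768), 39.5% (38.3 to 40.8) and 34.3% (33.1 to 35.5) of Fosb reads in knockout replicates 1 to 3. It held 2.17% (2.06 to 2.27) and 35.5% (34.6 to 36.5) in control replicates 1 and 3, and the 11 reads of control replicate 2 give no usable share. Replicate 1 of each group, where Fosb was highest, thus had the lowest share from the intron-keeping transcript. Fos-203, which joins 244 bases of intron to an exon, held 0.364, 7.31 and 6.49% of Fos reads in knockout and 0.665, 12.2 and 7.37% in control replicates 1 to 3. Nr4a1-204, annotated with a retained intron, held 0.159, 5.77 and 5.18% of Nr4a1 reads in knockout and 0.312, 6.79 and 15.2% in control replicates 1 to 3. Both shares were again lowest in replicate 1 of each group. Npas4 differed, with Npas4-202 at 0.979, 11.8 and 2.61% of Npas4 reads in knockout and 3.20, 0 and 14.2% in control replicates 1 to 3, the 0 being 0 of 144 reads (95% exact interval up to 2.53). The low Fos-203 shares were found in knockout replicate 1, at 275 CPM of Fos, and in control replicate 1, at 1706 CPM. The highest Fos-203 share, 12.2% (51 of 418 reads), was in control replicate 2, at 18 CPM of Fos. The relation of these shares to the level of the gene was not tested.

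Fosb transcripts that lack the 140 bases printed above, Fosb-206 and Fosb-207, held 8.97% (8.62 to 9.32), 0.267% (0.150 to 0.441) and 0.285% (0.166 to 0.456) of Fosb reads in knockout replicates 1 to 3. In control replicates 1 and 3 they held 6.40% (6.22 to 6.57) and 0.351% (0.243 to 0.491). As a share of Fosb TPM they held 24.1, 1.02 and 0.459% in knockout replicates 1 to 3 and 18.2 and 0.371% in control replicates 1 and 3. The delta-Fosb splice was thus most frequent in replicate 1 of each group, leaving out control replicate 2 with its 11 Fosb reads. These intervals cover counting error only, and Salmon divides by estimate the reads that fit several transcripts. The intron and splice shares were chosen after the transcript values were seen and were not tested between groups.

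**Figure D5:**
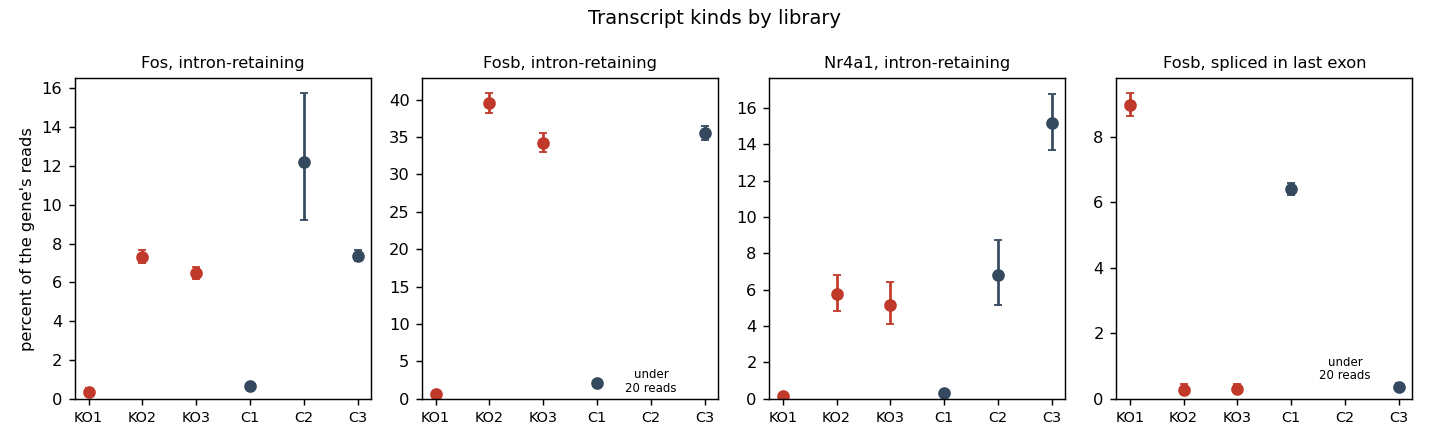
Percent of a gene's estimated reads (points, with 95% exact intervals of counting error) in intron-keeping transcripts of Fos, Fosb and Nr4a1 and in Fosb transcripts spliced inside the last exon, by library, knockout (KO) left and control (C) right; Fosb in control replicate 2, with 11 reads, is not drawn. Replicate 1 of each group has the lowest intron-keeping shares, 0.159 to 2.17%, and the highest delta-Fosb splice shares, 8.97 and 6.40%.

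Main-transcript shares were compared between the groups for the 3 genes where at least 2 transcripts reached 10% of reads, the control replicate 2 share of Fosb resting on 11 reads. Fosb-201 held 61.0 ± 24.8% in knockout and 45.8 ± 44.9% in control islets, Nr4a2-201 held 43.2 ± 33.3% in knockout and 31.5 ± 40.2% in control islets, and Npas4-201 held 67.7 ± 6.90% in knockout and 59.3 ± 13.7% in control islets (SD, n = 3 each). Exact two-sided permutation tests gave p = 0.7, 0.5 and 0.5 (adjusted p = 0.7 for all 3), where 3 against 3 cannot go below 0.1. Nr4a2-201 held 81.6, 21.8 and 26.1% of Nr4a2 reads in knockout and 77.9, 6.44 and 10.2% in control replicates 1 to 3, so its high share too was in replicate 1 of both groups. Nr4a2-203, the other leading protein-coding transcript, held 6.32, 51.8 and 70.9% in knockout and 0, 87.3 and 72.2% in control replicates 1 to 3.

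A wider list of 44 textbook immediate early and primary response genes showed the same picture. Over all tested genes edgeR called 9.95%, limma-voom 9.96% and DESeq2 16.1%, and 27.5% had an unadjusted p below 0.05. Of the 43 tested genes of the list, edgeR called 0 higher and 0 lower, limma-voom called 0 and DESeq2 called 1, and 2 had an unadjusted p below 0.05. These were the matricellular gene Ccn2, at 30.9 ± 9.49 CPM in knockout and 14.4 ± 4.28 CPM in control islets (log2 fold change 1.10, SE 0.29, adjusted p = 0.0542), and the synaptic scaffold gene Homer1 (1.04, SE 0.43, adjusted p = 0.165). Ccn2 was the gene that DESeq2 called (adjusted p = 0.00379), and it was called with the replicate number as a block (adjusted p = 0.0304). The third by p, the cAMP response modulator gene Crem, had a log2 fold change of 0.53 (SE 0.23, adjusted p = 0.184). The median log2 fold change of the list was -0.41. Control replicate 1 was the highest library in 32 of the 43 and control replicate 2 the lowest in 31, and 34 lay above the 90th percentile of the coefficient of variation.

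In the wider list the ratio of replicate 1 over replicate 3 passed 4-fold for 11 of 43 genes in knockout and 19 in control islets, and for 10 in both. The 10 genes Egr3, Egr4, Nr4a3, Atf3, Arc, Dusp5, Maff, Sik1, Csrnp1 and Tnfaip3 passed in both groups, and over replicate 2 the count in both was 6. Atf3, a stress-induced bZIP factor, read 431, 38.8 and 26.5 CPM in knockout and 530, 0.215 and 27.8 CPM in control islets. Egr3, a relative of Egr1, read 37.8, 2.33 and 1.204 CPM in knockout and 54.2, 0.0861 and 0.944 CPM in control islets. In contrast Dusp1, a phosphatase that inactivates MAP kinases, read 51.4, 192 and 135 CPM in knockout and 152, 17.6 and 185 CPM in control islets, with control replicate 2 and knockout replicate 1 lowest as for Fos, Jun and Egr1. In all, 11 of the 43 (25.6%) were lower in knockout replicate 1 than in knockout replicate 3, against 52.7% of all tested genes.

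The upstream regulators and kinases had a median coefficient of variation of 0.183 over 29 genes, Srf being an exception at 0.622. Of the 29, 1 rose and 1 fell, where 9.95% of all tested genes were called, and 6 had an unadjusted p below 0.05, where 27.5% of all tested genes did. Neither count exceeds that background. Elk3, a ternary complex factor that binds with serum response factor, rose to 86.4 ± 11.5 CPM in knockout islets, against 44.7 ± 2.99 CPM in control islets (log2 fold change 0.95, SE 0.14, adjusted p = 0.00694, edgeR, n = 3 each). Camk2b, a subunit of a calcium-dependent kinase, fell to 141 ± 13.0 CPM in knockout islets, against 250.3 ± 3.804 CPM in control islets (log2 fold change -0.83, SE 0.14, adjusted p = 0.00981, edgeR, n = 3 each). Both calls were kept in each of the 6 fits that left out 1 library. The kinase gene Map2k1 came next, at a log2 fold change of 0.40 (SE 0.13, adjusted p = 0.0917). Endothelial markers, whose cells are known to express Elk3, summed to 739 to 991 CPM in knockout and 552 to 701 CPM in control islets, with 3 of 7 higher, 0 lower and none at 0. Their part in the Elk3 value was not tested. Srf, the serum response factor itself, read 143, 42.7 and 36.3 CPM in knockout and 167, 28.6 and 33.8 CPM in control islets, high in replicate 1 of both groups as Nr4a2 was.

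Partner factors were not called by edgeR. Over all tested genes edgeR called 9.95%, DESeq2 16.1% and limma-voom 9.96%, and 27.5% had an unadjusted p below 0.05. Lists this short cannot be told apart from that background by their counts of calls. Of 10 tested bZIP factors that can pair with AP-1 proteins, 0 were called (1 had an unadjusted p below 0.05, and DESeq2 and limma-voom called 0). Of 4 tested partners of Npas4 and the Nr4a receptors, 0 were called (2 had an unadjusted p below 0.05, DESeq2 called 1 and limma-voom 0). The nearest was the retinoid X receptor gene Rxra, at 33.9 ± 6.48 CPM in knockout and 53.1 ± 5.29 CPM in control islets (log2 fold change -0.65, SE 0.17, adjusted p = 0.0513, and 0.0425 with the replicate block). Of the 2 Egr co-repressor genes, 0 were called by edgeR, DESeq2 or limma-voom, and Nab1 had an unadjusted p below 0.05 at a log2 fold change of 0.59 (SE 0.20, adjusted p = 0.106).

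Among 11040 other genes of at least 5 CPM, those whose profile over the 6 libraries was most like the mean profile of the 10 genes were Ppp1r15a (Pearson r = 0.996), Klf4 (0.994), Hist1h1d (0.993), Klf6 (0.992), Egr2 (0.989) and Tuba1a (0.981). Ppp1r15a, Klf4, Klf6 and Egr2 stood in the wider list. After group means were taken out, Csrp1, Ppp1r15a, Hist1h1d, Tagln2 and Klf6 were among the closest, with r between 0.995 and 0.998. These r describe 6 points that share libraries and scaling, and none of the named genes was called. Tuba1a, an alpha tubulin gene, read 499, 535 and 427 CPM in knockout and 687, 194 and 487 CPM in control islets.

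Summed markers of non-endocrine cells differed in their order over the libraries. Red blood cell markers summed to 133, 245 and 319 CPM in knockout and 287, 80.4 and 262 CPM in control replicates 1 to 3. This sum was lowest in control replicate 2 and next in knockout replicate 1, the order of the lowest libraries of Fos, Jun and Egr1. Schwann cell and ductal marker sums had that order too, so it was not particular to red blood cell markers. They read 14.5 and 247 CPM in control replicate 2 and 18.2 and 263 CPM in knockout replicate 1. The acinar sum was largest in knockout replicate 3 and smallest in control replicate 3. Immune markers, with sums of 135 to 186 CPM in knockout and 141 to 284 CPM in control islets, were highest in control replicate 2. Single immune markers went opposite ways, so this sum does not describe each of the 8. Of these 8, edgeR called 1 higher in knockout (Cd68, log2 fold change 1.61, adjusted p = 0.00889) and 1 lower (C1qa, -1.08, adjusted p = 0.0266). Mesenchymal markers summed to 363 to 743 CPM in knockout and 199.7 to 429 CPM in control islets and were lowest in control replicate 2. With the replicate block 8 of 8 mesenchymal markers were called, where 14.8% of all tested genes were. Without it 1 of 8 was called, where 9.95% of all tested genes were, and their log2 fold changes ran from 0.58 to 2.22. No marker of these lists was at 0 in any library, and their part in the values of the 10 genes was not tested.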

How the data were processed

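The authors deposited 1 Salmon table per library, with estimated counts, TPM and effective lengths per transcript, per the file headers; the submitters' processing notes name Trimmomatic, Salmon, DESeq2 and the builds GRCm38 and mm10, without versions. The authors also deposited a table of log2 fold changes and p-values of their own comparison, per the file headers; 6 columns of scaled gene values were not used. With 3 mice a group and 1 mouse per library, p-values measure the spread between libraries. In fits without the block, that spread holds both differences between mice and whatever the replicate numbers stand for.

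Estimated counts were summed per gene through GENCODE vM21 (139852 of 140948 transcripts matched), rounded, filtered by filterByExpr (minimum count 10), scaled by TMM and tested with edgeR 4.0.16 (R 4.3.3) by quasi-likelihood, group only, adjusted over 16430 genes at 0.05, two-sided. SE were taken from the F statistic, and log2 CPM used a prior count of 2. Alternatives used DESeq2 1.42.0, limma 3.58.1, RLE, no filter, length offsets, the replicate number as a block, and leaving out Gm42418 or each library. The procedure was tested on simulated data, drawn independently per gene, without a replicate effect and with changed genes picked from all tested genes. That simulation did not test power for the 10 genes. Replicates of a group differed far beyond sampling noise (a chi-square over genes of 57.5 to 353 per degree of freedom).

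Deviations from group means correlated at 0.427, 0.135 and 0.196 between same-numbered libraries, all over 0.1, the rule used here for treating the numbers as pairs. Pairs of different numbers ran from -0.318 to 0.14. Knockout replicate 2 correlated at 0.140 with control replicate 3 and at 0.135 with control replicate 2. For that library the number therefore did not pick out the closest control library. Its 0.140 with a different number also passes 0.1, so the rule does not separate same-numbered pairs from all others. What these numbers stand for is not stated.

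The members and lists were chosen with earlier results of these data known. All members are named, with up to 3 genes of smallest p per list, the 6 most alike by each of 2 profiles, and Srf, Atf3, Egr3, Dusp1 and the genes listed by their replicate ratios, which were chosen after their values were seen. Not every gene that this rule gives is reported here.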

Additional observations from a re-analysis of the deposited data

How the results depend on the processing

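No setting called any of the 10 genes: 0 were called under each of the 13 alternatives. Over all genes the 1634 calls became 2635 with DESeq2, 2430 with the replicate block and 737 to 1330 without 1 library. With the replicate block the log2 fold changes of 6 genes changed sign, to 0.22 (Fos), 0.38 (Fosb), 0.43 (Fosl2), 0.20 (Jun), 0.42 (Junb) and 0.30 (Jund). With limma-voom, which averages log values, 7 did, to 1.17 (Fos), 2.35 (Fosb), 0.49 (Fosl2), 0.60 (Jun), 0.78 (Junb), 0.30 (Jund) and 0.46 (Egr1). Without Gm42418 Jund moved to 0.0066. The cause was not tested. With the block the smallest unadjusted p of the 10 was 0.0464 for Nr4a2 (log2 fold change 1.10, adjusted p = 0.145), and among the listed genes the block added calls for Ccn2, Rxra (adjusted p = 0.0425) and Inhba (adjusted p = 0.0248). Among cell type markers it added 7 mesenchymal ones (for example Col1a2, 0.0143, and Dcn, 0.0146), Cdh5 (0.00725), Ins1 (0.0219), Ins2 (0.0229) and Hhex (0.0427). Leaving out 1 library gave ranges of -0.69 to 0.52 (Fos), -2.06 to 1.45 (Fosb), -2.73 to 3.25 (Fosl2), -0.81 to 0.19 (Jun), -1.01 to 1.01 (Junb), -0.43 to 0.94 (Jund), -1.30 to -0.16 (Egr1), -2.18 to 1.74 (Nr4a1), -1.12 to 2.97 (Nr4a2) and -2.22 to 0.99 (Npas4). The difference in main-transcript share, in percentage points, ran from -7.72 to 37.1 (Fosb), -7.51 to 34.9 (Nr4a2) and 0.596 to 13.3 (Npas4), and kept its direction with TPM. Shares of Fosb in control replicate 2 rest on 11 reads.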

Other observations

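Heat shock genes share with immediate early genes a fast response to stress, and the order of Hspa1a and Hspa1b over the libraries was partly that of Fos, Jun and Egr1. Hspa1a, an inducible chaperone gene, read 46.9, 226 and 125 CPM in knockout and 119, 16.5 and 607 CPM in control replicates 1 to 3, and its neighbour Hspa1b read 33.6, 268 and 147 CPM in knockout and 72.8, 25.9 and 627 CPM in control replicates 1 to 3. Hspa1a and Hspa1b are near-identical, so how reads were shared out between them is estimated. Both were lowest in control replicate 2 and next lowest in knockout replicate 1, as were Fos, Jun and Egr1. Both were highest in control replicate 3, where Fosl2 and Nr4a2 were low but Fos, Jun and Egr1 read 1298, 848 and 751 CPM. Of 8 heat shock genes edgeR called 0 (1 had an unadjusted p below 0.05, DESeq2 called 1 and limma-voom 0). Over all tested genes edgeR called 9.95%, DESeq2 16.1% and limma-voom 9.96%, and 27.5% had an unadjusted p below 0.05. Hspb1, a small heat shock protein gene, stood at a log2 fold change of 0.92 (adjusted p = 0.128, edgeR).

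Of secretory genes known to respond later to neuronal activity, Scg2, a granin of secretory granules, read 8614, 7480 and 8645 CPM in knockout and 4913, 5198 and 5056 CPM in control islets, without overlap between the groups (log2 fold change 0.71, adjusted p = 0.0506, edgeR quasi-likelihood test), and the prohormone convertase gene Pcsk1 stood at 0.36 (adjusted p = 0.212). Of the 6 genes in this list edgeR called 0 (2 had an unadjusted p below 0.05, DESeq2 called 2 and limma-voom 1). Over all tested genes edgeR called 9.95%, DESeq2 16.1% and limma-voom 9.96%. An unadjusted p below 0.05 was found for 27.5% of them, and 34.8% did not overlap between the groups. Inhba, a subunit gene of activins, stood at -1.25 on the log2 scale (adjusted p = 0.0757), at 1.45, 1.39 and 2.44 CPM in knockout and 2.84, 3.96 and 5.87 CPM in control islets.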
